A study of Mus musculus with 4 samples.

Results

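The 4 RNA-seq libraries of this mouse lung series fell into 2 pairs of like libraries: those labelled 8 h and 16 h of lipopolysaccharide (LPS) on the first side, and those labelled no LPS and 20 h on the other. This pairing does not follow the order of the times. It was chosen because the libraries resemble each other in these pairs, and the genes compared between the sides were all that reached 1 CPM (a read count over the scaled size of its library) in 2 or more libraries, 11547 of the 39056 genes in the count table. Since the counts themselves chose the pairing, the difference between the sides is described here with no test. The identity of the cells behind the libraries is open, and each library is called by its label. Whether each label belongs to its library was not tested, and every direction below is one between libraries as labelled.

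The labels describe S1PR1-GFP reporter mice, in which green fluorescent protein marks cells that express the sphingosine-1-phosphate receptor S1PR1, and cells of their lungs that were flow sorted as GFP-positive, CD31-positive and CD45-negative. LPS, the endotoxin of Gram-negative bacteria, was given into the peritoneum at 10 mg/kg, and the label hours are used as names only because the protocol does not say whether they count from a single injection. All groups share the reporter and the sort gate and differ by label in LPS alone, with 1 library for each of no LPS, 8 h, 16 h and 20 h. Whether a library came from 1 mouse or a pool, and the age of the mice, is not stated by the labels.

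CD31 (Pecam1) and VE-cadherin (Cdh5) hold endothelial cells together, and S1PR1 signalling tightens their junctions. LPS acts on the lung endothelium through Toll-like receptor 4 and NF-kB, and the injured vessel wall is repaired in part by endothelial division. A cell that divides passes through a wave of mitotic transcription driven from promoters that often carry CCAAT boxes, bound by NF-Y, and the cell cycle genes homology region (CHR), bound by the DREAM complex and MYB-MuvB.

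Totals ranged from 27566454 to 28905776 reads per library, and scaling factors from 0.993 to 1.007. A level of 3 reads, the most that 0 reads allows, was 0.104 to 0.108 CPM, and this limit and all intervals cover counting error only. Several defining markers went against the labelled cell type: Pecam1 had 1 to 7 reads and Cdh5 5 to 9 reads per library. Of 26 endothelial markers 7 passed the filter and 5 had 0 reads in every library, among them Erg, Emcn and Cldn5. The 7 that passed were at unlike levels. Eng, a TGF-beta co-receptor gene, was at 53.6 to 57.2 CPM and Calcrl, a receptor gene for adrenomedullin, at 44.1 to 50.2 CPM. Cd34 was at 12.5 to 22.7 CPM and Flt1 at 11.4 to 28.3 CPM. Egfl7 (3.08 to 4.28 CPM), Ramp2 (1.63 to 3.32 CPM) and S1pr1 (0.955 to 3.03 CPM) were low. Prrx1, a mesenchymal transcription factor gene, stood at 210, 209, 213 and 211 CPM. Here and throughout, sets of 4 values run from no LPS through 8 h and 16 h to 20 h.

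A gene was called higher on the 8 and 16 h side when its lower library there was at least 2-fold above the higher library of the other side and the 95% interval of that fold excluded 1. This ratio between the nearest libraries across the sides is called the closest fold, and genes were called lower by the mirrored rule. By it 307 genes were called higher, 2.66% of those compared, and 332 lower, 2.88%. Of these, 63 higher and 142 lower ones had both libraries of the opposite side under 1 CPM. They passed the filter only through the side where they are high, which fixed their direction. The sides did not overlap for 9477 genes (82.1%), of which 4706 were higher and 4771 lower on the 8 and 16 h side. Most of these differences were small, with a closest fold under 1.25 for 2832 of the higher and 2949 of the lower genes, and it reached 4 for 27 and 65. Just inside the threshold stood Mapre2 at a closest fold of 2.001 and, among lower genes, Hgsnat at 2.004. Just outside stood Tgif2 at 1.999 and Parp10 at 1.997. Over all compared genes the median log2 side difference, the mean log2 level at 8 and 16 h minus that at no LPS and 20 h with a prior count of 2, was -0.005.

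Libraries within a side were close to copies of each other. Between 16 h and 8 h 27 genes passed the same rule of size (0.234%), and between 20 h and no LPS 54 did (0.468%). Across the sides the counts were 929 for 8 h against no LPS (8.05%), 939 for 16 h against 20 h (8.13%), 914 for 16 h against no LPS (7.92%) and 959 for 8 h against 20 h (8.31%). The mean chi-square per gene, which is near 1 where libraries differ by counting noise alone, was 1.63 between 16 h and 8 h and 7.47 between 20 h and no LPS. Across the sides it lay between 75.5 and 81.2. The libraries labelled 8 h and 16 h therefore differed by a little more than counting noise, and are kept as separate libraries. Of 8476 genes at 10 CPM or more in every library, 99.8% lay within 1.25-fold of each other between 16 h and 8 h, and 97.5% between 20 h and no LPS. Across the sides this share was 64.4% to 65.9%. The first principal component of log2 levels held 90.4% of the variance and gave loadings of -0.5, 0.5, 0.5 and -0.5.

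The side difference could be read in pairs that share no library, the 8 h over no LPS ratio and the 16 h over 20 h ratio. Their log2 ratios correlated across 11547 genes at Pearson r = 0.912 and Spearman rho = 0.896, a description since the pairs were picked on likeness and genes are not replicates. In both pairs 343 genes were called higher, 72.8% of the first pair's 471 and 78.5% of the other's 437. Another 361 were lower in both, 78.8% and 71.9% of each list, and 0 went in opposite directions by these calls. The other pairing with no shared library, 16 h over no LPS and 8 h over 20 h, gave r = 0.888 and rho = 0.872. In that pairing 331 genes were higher in both, 364 lower in both and 4 called in opposite directions.

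**Figure D1:**
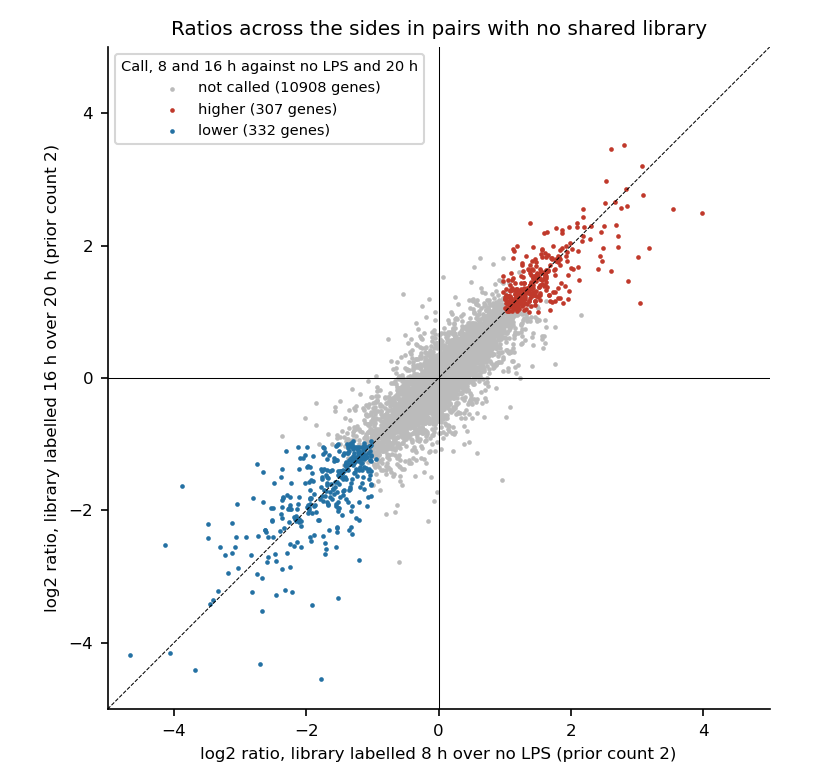
Each point is 1 of 11547 genes, with the log2 ratio of the library labelled 8 h over no LPS on the x axis and of 16 h over 20 h on the y axis, both with a prior count of 2, and the dashed line is equality. Points follow the dashed line, and the 307 called higher (red) and 332 called lower (blue) lie in opposite corners because the calls were made from these same ratios.

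By count, mitotic genes gave more calls than any other of the gene lists, all on the higher side. Calls in this and all later lists are read beside the 2.66% of compared genes called higher and the 2.88% called lower. Some smaller lists had a larger share called higher, such as tubulins (5 of 12) and keratins, intermediate filaments and lamins (5 of 14). Of 75 compared members of the G2/M list (76 listed), 22 were called higher and 0 lower, beside 2.66% of all genes, with a median log2 side difference of 0.88 and 72 members above 0. Their summed level was 4220, 7470, 7450 and 4240 CPM. Top2a, the topoisomerase that untangles sister chromatids (chromosome 11, 98992943 to 99024189, minus strand, mm10), stood at 347, 704, 713 and 341 CPM, a closest fold of 2.03 (95% interval 1.98 to 2.08). Mki67, the proliferation marker that coats mitotic chromosomes, was at 115, 354, 354 and 117 CPM, a closest fold of 3.03 (2.91 to 3.15). In both genes the values of a side were within a few percent of each other and the sides stood well apart. Nusap1, which bundles spindle microtubules, was at 9.62, 33.7, 35.6 and 9.82 CPM, and Iqgap3, a cytokinesis scaffold gene, at 19.1, 68.4, 64.9 and 16.9 CPM. Cyclin B2 (Ccnb2) was at 33.5, 95.7, 96.5 and 37.2 CPM, Prc1 of the central spindle at 36.8, 104, 97.8 and 33.7 CPM, and the mitotic kinase gene Plk1 at 10.3, 28.5, 27.6 and 9.86 CPM. The members at or below 0 were few: Psrc1 stood at 75.3, 63.5, 62.9 and 75.6 CPM, and Pttg1 and Gtse1 were near 0 at -0.07 and -0.04 log2.

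DNA replication genes were shifted less. Of 55 compared, 4 were called higher and 0 lower, with a median log2 side difference of 0.43. Of all compared genes 2.66% were called higher and 2.88% lower. Thymidine kinase 1 (Tk1), an S phase enzyme of nucleotide salvage, was at 12.6, 58.2, 60.0 and 12.3 CPM, a closest fold of 4.62 (4.12 to 5.2). The ribonucleotide reductase gene Rrm2 was at 97.3, 240, 244 and 96.5 CPM, and the E2F genes E2f2 and E2f8 were the other 2. The list of D cyclins, CDK inhibitors and Myc had 1 of 21 higher, Cdkn2d, at 2.72, 10.6, 11.8 and 2.92 CPM. The p53 target list had 1 of 28 lower, Trp53inp1 at 203, 76.3, 75.8 and 189 CPM, and 0 higher. Single calls such as those of Cdkn2d and Trp53inp1 are not read as results about their lists.

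Promoters of mitotic genes are shown because they often held 2 motifs known from cell cycle control. RefSeq promoters (GRCm38.p6, 250 bases before to 50 after a start) matched 64 of the 75 compared G2/M genes and 9003 of 11538 compared genes with a symbol. The CCAAT box (CCAAT) was found on either strand in 46 of the 64 (71.9%) and in 43.6% of all promoters, and the CHR (TTTGAA) in 44 (68.8%) against 14.0%. Both were present in 56.2% against 7.08%. A match is a description of the letters and was not tested as a site. Of the called-higher genes outside the cell cycle lists, 15.1% held the CHR. The 250 bases upstream of 4 called mitotic genes follow, 5' to 3' on the gene's strand, with CCAAT box and CHR letters of either strand in capitals. Mki67 has 3 CCAAT boxes and 2 CHR (chr7:135716380-135716629, minus strand), Top2a 6 and 2 (chr11:99024190-99024439, minus strand), Ccnb2 3 and 1 (chr9:70421555-70421804, minus strand), and Nusap1 0 and 0 (chr2:119618048-119618297, plus strand).
Mki67: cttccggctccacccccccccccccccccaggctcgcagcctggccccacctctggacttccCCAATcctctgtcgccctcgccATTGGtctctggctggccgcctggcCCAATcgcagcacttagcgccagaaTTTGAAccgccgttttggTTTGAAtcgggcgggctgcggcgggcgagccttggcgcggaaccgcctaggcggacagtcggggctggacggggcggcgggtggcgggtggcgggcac
Top2a: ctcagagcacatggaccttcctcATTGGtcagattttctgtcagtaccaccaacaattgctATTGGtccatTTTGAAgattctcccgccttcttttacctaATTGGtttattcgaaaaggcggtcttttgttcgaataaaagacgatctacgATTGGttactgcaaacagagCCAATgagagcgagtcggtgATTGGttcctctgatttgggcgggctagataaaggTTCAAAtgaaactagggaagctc
Ccnb2: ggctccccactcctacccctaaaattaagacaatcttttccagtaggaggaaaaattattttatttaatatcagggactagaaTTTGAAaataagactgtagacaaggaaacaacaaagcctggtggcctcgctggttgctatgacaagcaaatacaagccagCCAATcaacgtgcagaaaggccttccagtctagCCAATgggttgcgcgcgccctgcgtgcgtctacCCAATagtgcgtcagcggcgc
Nusap1: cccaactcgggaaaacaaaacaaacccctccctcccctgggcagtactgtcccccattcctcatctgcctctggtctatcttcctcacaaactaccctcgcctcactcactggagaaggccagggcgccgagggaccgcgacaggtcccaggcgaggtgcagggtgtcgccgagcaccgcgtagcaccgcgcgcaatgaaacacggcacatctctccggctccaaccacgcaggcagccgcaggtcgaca
Nusap1 had the largest closest fold of the called mitotic genes (3.43) with neither motif in this window, which overlaps the first exon of Oip5 on the other strand. The other motifs searched were E2F (TTTCCCGC, TTTGGCGC, TTTCGCGC or TTTGCCGC), the sterol element (TCACNCCAC), TEAD (GGAATG), the CArG box, AP-1 (TGANTCA) and the CRE half-site (TGACG). Among all called-higher genes (236 matched) and called-lower genes (229 matched) most of these differed little. The CRE half-site was in 23.7% of called-higher and 24.0% of called-lower promoters against 36.9% of all, and AP-1 in 9.32% and 9.17% against 6.04%.

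All 12 compared tubulins were above 0 in log2 side difference with a median of 1.02, and 5 were called higher, a list drawn up after the values were seen. Their summed level was 1160, 2240, 2200 and 1100 CPM. Tubb6, a beta-tubulin gene, was at 162, 374, 361 and 154 CPM, and Tubb3, the beta-tubulin best known from neurons, at 6.62, 19.5, 20.1 and 6.57 CPM. Tuba1b, Tuba1a and Tuba1c are neighbours on chromosome 15 and were called together with the intermediate filament gene Prph beside them (98931425 to 99058978). Tubulin paralogs are near identical and their reads may be split by the authors' counting. In the list of keratins, intermediate filaments and lamins 5 of 14 were called higher and 1 lower. The paired keratin genes Krt8 and Krt18 adjoin on chromosome 15 (101996698 to 102032027) and were at 13.1, 32.6, 32.5 and 14.1 CPM and at 38.1, 90.8, 92.8 and 37.7 CPM. Nes, which encodes nestin, was at 152, 319, 313 and 148 CPM, and Krt20 was the lower one.

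Some genes of the calcium-binding S100 family were called higher. In a list also drawn up after the values were seen, 3 of 8 compared S100 genes were called higher and all 8 lay above 0 (median 0.92). S100a8, below the filter and not compared, was at 1.2, 0.209, 0.253 and 0.903 CPM. S100a3, S100a4 and S100a6 adjoin on chromosome 3 (90560578 to 90624181). S100a6, a small calcium sensor, was at 249, 730, 789 and 207 CPM and S100a4, which binds myosin, at 3.29, 15.2, 14.8 and 2.46 CPM. The S100a10 gene, partner of annexin 2, was not called, at 143, 229, 240 and 144 CPM. The contractile and actin-binding list had 3 of 28 higher and 1 lower (median 0.23). The actin-severing gelsolin gene Gsn was at 76.3, 214, 214 and 72.3 CPM and calponin 2 (Cnn2) at 45.5, 119, 121 and 47.6 CPM, whereas the advillin gene Avil, of the same gelsolin family, was lower at 129, 22.7, 23.4 and 124 CPM.

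Some called genes lay beside each other on the chromosome. Among the 639 called genes, 49 (7.67%) formed 22 runs of compared genes, next to each other in order of start and called in the same direction. Over all compared genes 2.66% were called higher and 2.88% lower. How many runs these shares alone would give was not worked out, so the runs are listed only. The selectin genes Sele and Selp, adhesion receptors for leukocytes on activated endothelium, adjoin on chromosome 1 (164048234 to 164150026) and were at 7.71, 20.3, 19.8 and 7.44 CPM and at 3.5, 7.80, 8.27 and 3.65 CPM. The caspase genes Casp1 and Casp4, which act in inflammasome signalling, adjoin on chromosome 9 (5298517 to 5336783), and both were lower. Timp1, an inhibitor of metalloproteinases (X chromosome, 20870166 to 20874735), was called higher together with Syn1 (20860511 to 20921004). Timp1 lies inside Syn1, so these are overlapping genes. The labels do not say whether reads were counted by strand, so their calls may not be separate.

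Several abundant genes marked the sides. Axl, a receptor tyrosine kinase, was at 238, 586, 575 and 232 CPM, heme oxygenase 1 (Hmox1) at 197, 516, 495 and 183 CPM, and annexin A1 (Anxa1) at 220, 448, 441 and 217 CPM. Anxa1 lies at the threshold and lost its call with scaling by library totals or upper quartiles and with length trends removed. On the lower side Aldh1l2, a mitochondrial folate enzyme gene, was at 1120, 440, 439 and 1080 CPM, a closest fold of 2.44 (2.39 to 2.49). Polr2a, the largest subunit of RNA polymerase II, was at 1080, 474, 457 and 1010 CPM. The desaturase gene Scd2 was at 864, 360, 363 and 855 CPM, and the purine catabolism gene Xdh at 564, 256, 253 and 528 CPM. In each of these 7 genes the 2 libraries of a side differed by less than the sides did, but all 7 were picked as called genes, at least 2-fold apart.

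**Figure D2:**
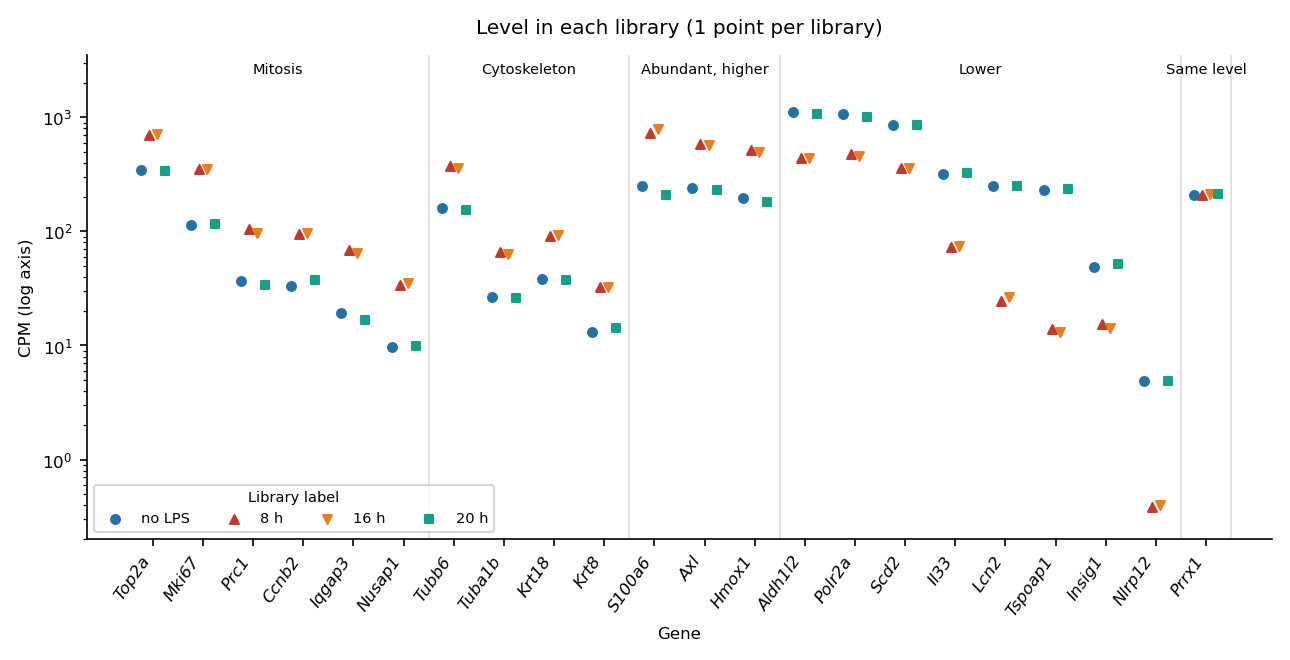
CPM (log axis) of 22 genes in each of the 4 libraries, 1 point per library, grouped by role. Circles (no LPS) and squares (20 h) sit together, as do both triangles (8 h and 16 h), and the pairs are apart for every gene but Prrx1, at 210, 209, 213 and 211 CPM. All genes shown but Prrx1 were picked from the called genes, so their pairs are apart by the rule of the calls.

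Most clotting genes were above 0 in log2 side difference, and matrix genes went both ways. Of 16 coagulation and fibrinolysis genes 4 were called higher and 0 lower, with 13 above 0 (median 0.68). Tissue plasminogen activator (Plat) was at 4.74, 14.7, 14.1 and 4.51 CPM and the protease receptor gene F2rl1 at 7.32, 22.5, 22.8 and 7.44 CPM. Of the YAP and TEAD target list 4 of 31 were called higher, with Ankrd1 at 3.08, 17.8, 16.1 and 3.21 CPM and Ccn2 (CTGF) at 1.13, 6.65, 6.68 and 1.66 CPM. The TEAD motif was in 11 of 21 matched promoters of this list (52.4%), against 13.8% of all. The integrin, laminin and nidogen list had 3 of 28 higher, led by Tinagl1 at 5.31, 38.4, 40.4 and 6.61 CPM, and 1 lower. The collagen list had 2 higher and 2 lower of 27, with Pcolce, which helps cleave procollagen, at 55.3, 164, 164 and 54.7 CPM.

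The S1P list had 3 of 13 called higher and 1 lower (median 0.12). S1pr1, the gene behind the sort, stood at 0.955, 3.03, 2.85 and 1.05 CPM (27, 87, 79 and 29 reads), a closest fold of 2.72 (1.76 to 4.32). Spns2, which exports S1P, was at 1.24, 9.06, 9.02 and 0.722 CPM and Sphk1, which makes it, at 1.49, 6.27, 6.46 and 2.02 CPM, while Mfsd2b, another S1P transporter, was lower. The LPS sensing and NF-kB list had 0 of 30 called in either direction (median -0.07), with 13 above 0 and 17 below. Over all compared genes 2.66% were called higher and 2.88% lower. Tnfaip3 lay just under the threshold at 5.2, 11.5, 10.5 and 5.34 CPM, a closest fold of 1.97 (1.61 to 2.42). Rel was at 12.8, 20.5, 21.2 and 12.9 CPM, a closest fold of 1.59 (1.39 to 1.81). Tlr4 was at 32.2, 36.5, 35.5 and 30.3 CPM, and Nfkbia at 57.6, 66.8, 63.7 and 64.5 CPM. Egr1, an immediate-early factor gene, was at 9.09, 57.8, 60.1 and 9.42 CPM, a closest fold of 6.13 (5.37 to 7.01). Klf2, a shear-responsive factor of endothelium, was not called at 4.39, 13.4, 12.9 and 8.27 CPM, nor was Stat3 at 56.1, 77.7, 75.5 and 56.8 CPM.

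Sterol genes were mostly on the lower side by direction. Of 31 compared, 28 were below 0, with a median log2 side difference of -0.37. The lower call was reached by 2 of the 31, beside 2.88% of all compared genes, and the higher call by 0. Insig1, which holds SREBP in the endoplasmic reticulum when sterols are ample, was at 49.1, 15.3, 14.2 and 52.0 CPM, a closest fold of 3.21 (2.88 to 3.58). The synthesis enzyme gene Hsd17b7 was at 41.1, 18.6, 18.1 and 38.8 CPM. The sterol element was found in 1 of the 22 matched promoters of this list.

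Several genes of inflammation were called lower. Il33, an alarmin of barrier cells (chromosome 19), stood at 316, 73.0, 74.2 and 323 CPM, a closest fold of 4.25 (4.05 to 4.46). Lcn2, whose product binds bacterial iron carriers, was at 250, 24.8, 26.8 and 250 CPM, a closest fold of 9.32 (8.64 to 10.1). Nlrp12, a modulator of inflammasome signalling, was at 4.88, 0.383, 0.397 and 4.91 CPM. The IL-1 family and inflammasome list had 4 of 16 lower and 1 higher, Nlrp3, at 1.24, 3.03, 3.5 and 1.16 CPM. Tspoap1 led the lower genes whose higher libraries held 100 reads or more each, at 232, 13.9, 13.1 and 234 CPM. Genes of the motile cilium axoneme, from a list drawn up after the values were seen, had 7 of 21 lower and 0 higher. One of the lower genes was Rsph10b at 8.14, 0.766, 1.15 and 7.15 CPM. The summed level of the list did not follow the sides, at 326, 314, 321 and 341 CPM, and 7 of the 21 lay above 0. Of all compared genes 2.88% were called lower, and of those with a mean level under 2 CPM 15.1%.

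**Figure D3:**
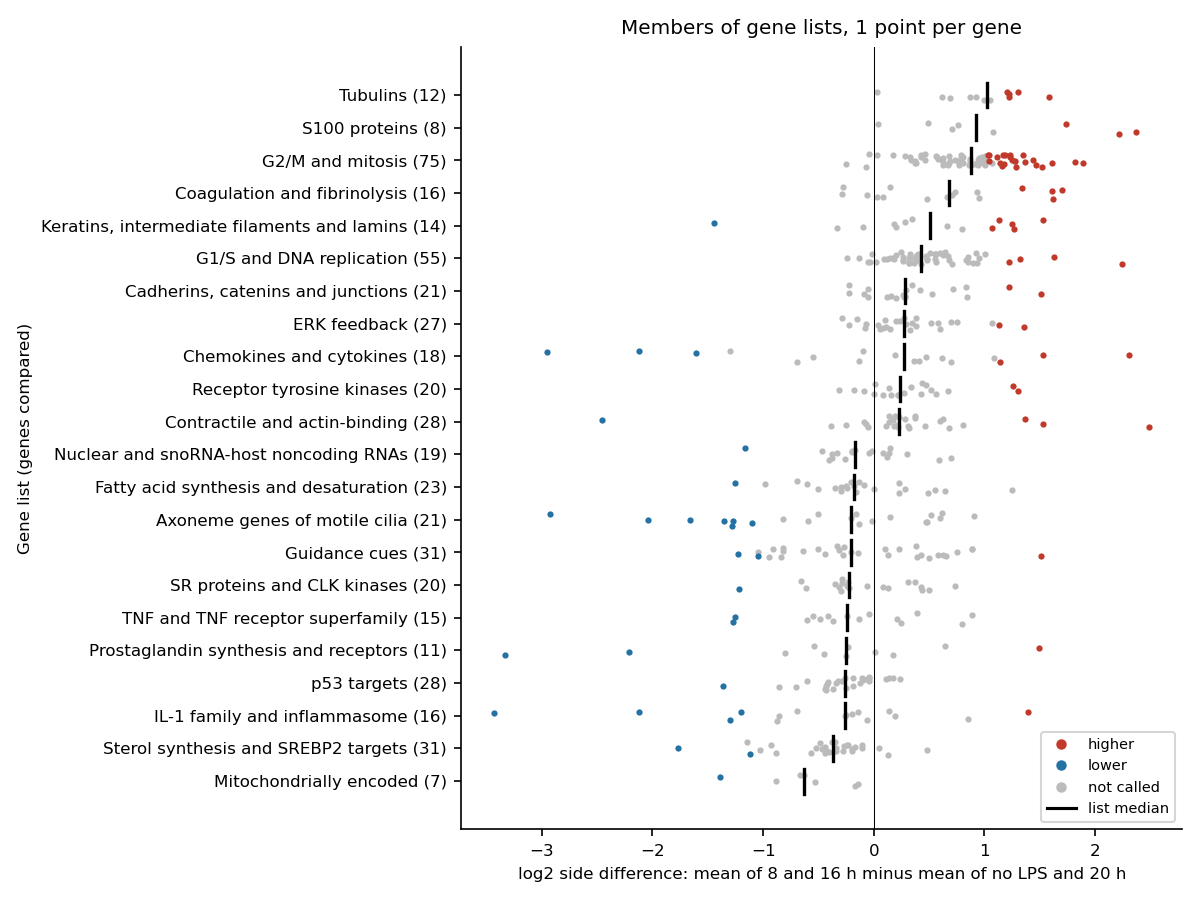
Log2 side difference (x axis) of each compared gene in the 11 lists with the highest and the 11 with the lowest medians among lists of 7 or more compared genes, 1 point per gene, with the list median as a bar and called genes in colour. Tubulins stand at a median of 1.02 and G2/M genes at 0.88, sterol genes at -0.37 and mitochondrially encoded genes at -0.63.

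Ligand and receptor genes were called in both directions, as were genes at large, 2.66% of all compared higher and 2.88% lower. In the list of angiogenic and other growth factors 3 of 27 were higher and 1 lower: the peptide ligand gene Apln was at 16.5, 55.9, 56.3 and 17.9 CPM, the EGF receptor ligand gene Tgfa at 1.24, 3.55, 4.11 and 1.23 CPM, and Fgf21 was the lower one. Flt1, a receptor for VEGF, was at 11.7, 27.3, 28.3 and 11.4 CPM. Of the TGF-beta list 2 of 22 were higher, among them the ligand gene Tgfb1 at 7.43, 26.0, 28.8 and 11.1 CPM. In the BMP list 2 of 12 were higher, the inhibitor gene Id3 at 4.67, 20.3, 22 and 5.78 CPM and Smad9, which had 2 reads in each library of the no LPS and 20 h side against 32 at 8 h and 35 at 16 h. The axon and vessel guidance list had 1 of 31 higher, near the share of all genes, Sema3e at 29.1, 81.4, 82.7 and 28.3 CPM. It had 2 lower, among them Slit2 at 21.6, 9.51, 8.81 and 21.6 CPM. Of 18 chemokine and cytokine genes 3 were higher and 3 lower. The monocyte attractant gene Ccl2 was at 18.8, 40.7, 41.0 and 18.3 CPM, while Ccl25, which draws thymocytes and gut T cells, was at 47.4, 15.3, 15.2 and 46.2 CPM. The prostaglandin list had 2 of 11 lower, the receptor genes Ptgir and Ptger1, and 1 higher. Ptgir was at 2.37, 0.0697, 0.361 and 2.42 CPM and Ptger1 at 3.36, 0.592, 0.686 and 3.07 CPM. Both passed the filter only through the side where they are high.

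Lists of stress responses and housekeeping are read beside the 2.66% of all genes called higher and the 2.88% called lower. The interferon list had 3 of 26 higher and 0 lower, with the RNA sensor gene Ddx58 at 5.98, 18.6, 17.2 and 5.85 CPM. The ATF4 and tRNA charging list had 4 of 44 lower and 0 higher, with the transcription factor gene Atf5 at 50.4, 17, 19.2 and 60.5 CPM and the arginine transporter gene Slc7a3 at 26.2, 8.57, 9.74 and 25.7 CPM. Of 30 genes of the unfolded protein response 1 was lower, the chaperone gene Dnajb9, at 146, 68.0, 70.5 and 145 CPM. The cytosolic ribosomal protein list had 0 of 78 called with a median of 0.02, the heat shock list 0 of 28 and the Notch list 0 of 16. Among 40 glycolysis and hypoxia genes 1 was lower, Car9, and the median was 0.00.

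Mitochondrially encoded transcripts took 1.80, 1.36, 1.40 and 1.90% of reads, a difference that follows the sides. All 7 compared were below 0 in log2 side difference (median -0.63), and 1 was called lower, mt-Nd6, the gene on the light strand, at 38.1, 13.1, 14.2 and 33.6 CPM. The nuclear-encoded oxidative phosphorylation list had 1 of 74 lower and a median of 0.15, the opposite sign. The part of the mitochondrial share of reads in the other differences was not tested.

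A larger share of noncoding than of coding genes was called lower, given with no test. Of 320 compared, 60 (18.8%) were called lower and 7 (2.19%) higher, against 2.42% and 2.71% of 10978 protein coding genes. The share called lower was above that of coding genes in every level band: 24.2% against 16.1% under 2 CPM, 20.5% against 5.74% from 2 to 10 CPM and 5.88% against 0.825% above 10 CPM. Platr26, a long noncoding RNA gene, was at 7.50, 0.522, 0.325 and 8.34 CPM, and the lincRNA gene 2310001H17Rik at 11.5, 2.02, 1.80 and 11.7 CPM. Among the lower genes the median mean level was 2.76 CPM, against 7.24 CPM for higher and 37.5 CPM for all compared genes. Of the called genes 142 lower and 63 higher ones had both libraries of the opposite side under 1 CPM, so those passed the filter only through the side where they are high. Among them are Platr26, Nlrp12, Ptgir, Ptger1, Mfsd2b, Fgf21 and Car9 on the lower side, and Smad9 and S100a3 on the higher side. The labels do not say whether the authors counted by strand, so antisense and overlapping noncoding genes are uncertain.

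**Figure D4:**
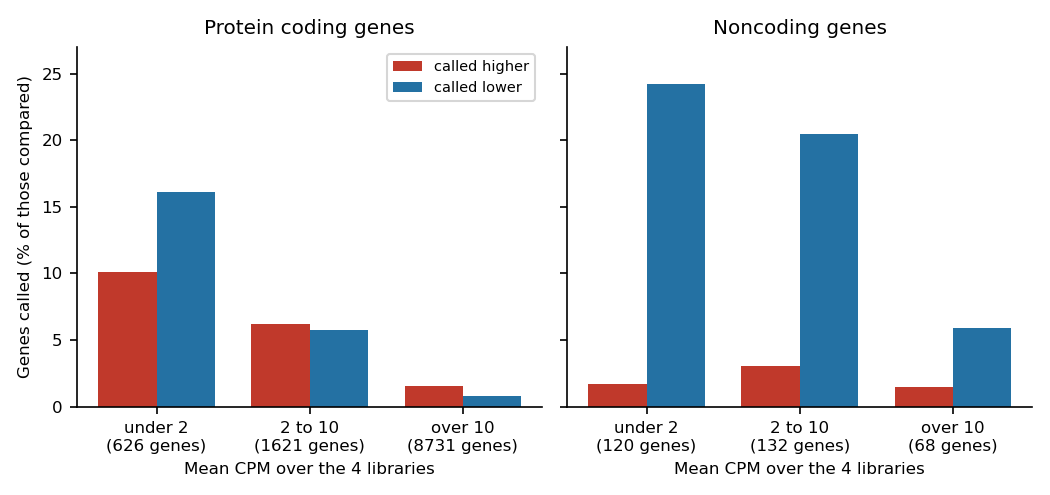
Share of compared genes called higher (red) and lower (blue) on the 8 and 16 h side, in % (bars from 0), for protein coding and noncoding genes in 3 bands of mean CPM. Noncoding genes reach 24.2% lower under 2 CPM and 20.5% from 2 to 10 CPM, where coding genes reach 16.1% and 5.74%.

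Marker genes of other cells were described beside these calls. The lung epithelial list had 6 of 20 compared and 3 called higher, Krt8, Krt18 and Rtkn2, with a summed level of 104, 201, 205 and 106 CPM that follows the sides. Its defining genes were at or near 0: Epcam had 1 to 3 reads, Sftpc 0 or 1 and Sftpb and Nkx2-1 0. The fibroblast list summed to 2110, 1790, 1770 and 2040 CPM with 2 higher and 1 lower of 8, and Col1a1 had at most 4 reads. Most of this sum was the fibronectin gene Fn1, at 1600, 1220, 1180 and 1540 CPM. Unlike Col1a1, the collagen gene Col3a1 of this list was well above the filter, at 168, 81.8, 83.2 and 163 CPM, and was not called. Pdgfra, also on the list, was near level at 34.1, 31.3, 34.4 and 31.8 CPM. The macrophage list summed to 191, 169, 169 and 201 CPM and the leukocyte list to 39.6, 41.1, 39.8 and 42.9 CPM, with 0 called in either. The largest part of the macrophage sum was Cd68, at 99.7, 66.5, 62.0 and 96.6 CPM, while Csf1r had 9 to 30 reads and C1qa 0 to 5. In the leukocyte sum the largest part was Arhgdib, at 22.9, 23.9, 21.9 and 24.9 CPM. Ptprc, which encodes CD45, had 31 to 42 reads. The neutrophil list (0.397 to 1.45 CPM) and the T, NK and B cell list had 0 genes compared, and 8 of the 12 lymphocyte genes had 0 reads. The part of these cells in the differences was not tested, and in bulk RNA fewer cells and less RNA per cell cannot be told apart.

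Departures within a side were few. Between 16 h and 8 h, 25 of the 27 called genes had a mean level under 2 CPM, and between 20 h and no LPS 26 of the 54 did. The macrophage elastase gene Mmp12 (0.212, 0.418, 4.87 and 2.89 CPM), the fatty acid receptor gene Cd36 (0.531, 0.836, 3.97 and 2.13 CPM) and the macrophage marker Adgre1 (0.425, 1.08, 2.78 and 0.867 CPM) were higher at 16 h than at 8 h. The first 2 were also higher at 20 h than with no LPS, so they cut across the sides. Lyz2, on the macrophage list with Adgre1, was near level at 21.5 to 25.6 CPM. Whether the reads of these genes came from the same cells was not tested.

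Of the 46 genes higher at 20 h than with no LPS, 19 (41.3%) had at most 2 exons in any transcript. The share was 37.5% of the 8 genes lower at 20 h and 7.02% of all compared genes. Among protein coding genes alone it was 37.5% of the 40 higher, 0 of the 4 lower and 4.54% of all compared. Among the 46 the median transcript GC content was 58.6%, against 52.6% for the 8 and 49.5% for all. Jund, an AP-1 factor gene, was at 41.0, 26.0, 31.7 and 130 CPM and Ier5l at 5.48, 5.36, 7.36 and 24.4 CPM. Ccdc85b was at 3.64, 7.18, 9.42 and 27.4 CPM, Cebpd at 9.31, 4.01, 4.26 and 29.1 CPM, and Hnrnpa0, an RNA-binding protein gene, at 67.5, 78.2, 96.3 and 206 CPM. Cebpd was also called lower on the 8 and 16 h side. The exon and GC counts were looked at after these genes were seen, and the cause was not tested.

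**Figure D5:**
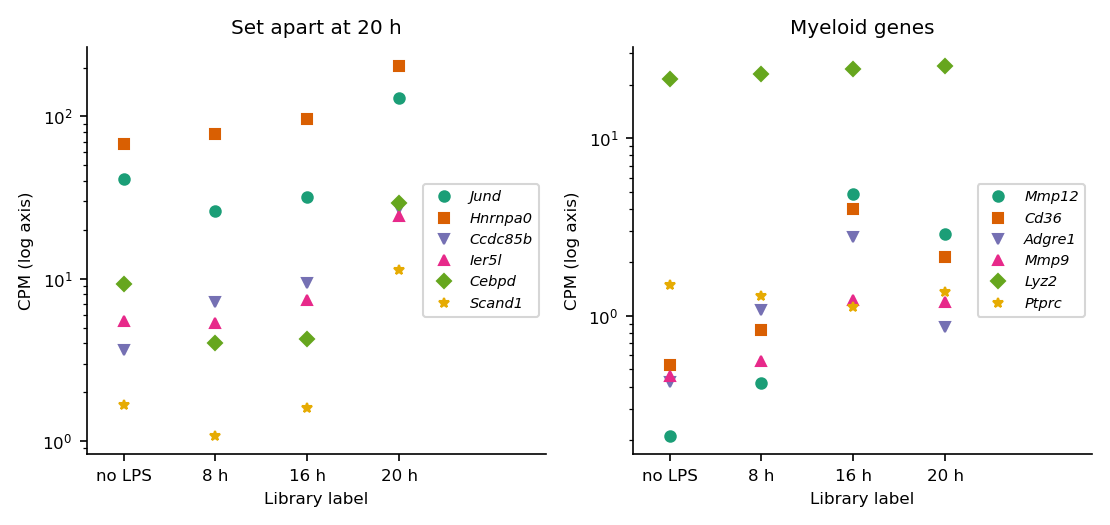
CPM (log axis) of 6 genes set apart at 20 h (left) and of 6 myeloid genes (right), 1 point per library by label. Jund reaches 130 CPM at 20 h against at most 41.0 elsewhere, and Mmp12 and Cd36 are highest at 16 h and next at 20 h.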

How the data were processed

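Polyadenylated RNA was sequenced in 4 libraries, 1 per label. The authors deposited unnormalized read counts for each gene (integers, a column for each library), made with STAR and featureCounts on mm10, per the submitters' processing notes. Tool versions, gene models, strand settings and the handling of multiply mapped reads: not given in the sources used here. Columns were matched to samples by title. Symbols and coordinates came from GENCODE M21, which matched 38872 of 39056 identifiers (99.5%), and promoters from RefSeq.

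Counts were scaled with edgeR 4.0.16 (TMM factors, R 4.3.3) and compared as CPM for genes of at least 1 CPM in 2 or more libraries. Folds carry the exact conditional binomial (Clopper-Pearson) 95% interval of the counts. The prior count in log2 differences was 2. No paired design and no test of the sides was used, since the pairing came from these counts.

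Named genes were, per direction, the 10 called genes with the largest closest fold among those with 100 reads or more in both higher libraries and the 10 with the highest mean CPM. From each list up to 4 called members, or 2 members of the largest side difference where none was called, were added, and for each side the 8 genes of largest fold between its libraries. S1pr1, Pecam1, Cdh5, Ptprc, Klf2, Stat3, Prrx1 and Vim were always included, and the text gives a part of these. Psrc1, Pttg1, Gtse1, Ccnb2, Prc1, Tlr4, Nfkbia, S100a10, Lyz2, Eng, Calcrl, S100a8, Mmp9, Ccl2 and 2310001H17Rik were picked after their values were seen. So were Col3a1, Pdgfra, Arhgdib, Csf1r, C1qa and the genes at the thresholds. The members, lists and rules were chosen with earlier results of these data known, and 5 of the lists after the values were seen. Some genes that the rule selects are left out of the text.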

Additional observations from a re-analysis of the deposited data

How the results depend on the processing

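The counts of called genes moved with the fold threshold and with filters on low levels. At a fold of 1.5, 860 genes were higher, 778 lower, 79 called between 16 h and 8 h and 201 between 20 h and no LPS. At a fold of 4 the counts were 27, 65, 6 and 7. With at least 10 CPM in 2 or more libraries they were 157, 94, 0 and 11. With 1 CPM in 1 or more libraries 43 and 87 genes were called within the sides, and with no filter 172 and 216. A stricter interval level left 3 genes between 16 h and 8 h. Leaving out 1 library in turn gave 351 to 405 higher and 379 to 420 lower, all above the counts with 4 libraries because fewer libraries must clear the threshold. Scaling by library totals, DESeq2 size factors or upper quartiles, thinning, and removing GC or length trends changed none of the 4 counts by more than 1.5 times. Of 2296 values of 164 named genes under alternatives 0 changed sign while called, 167 lost the call and 10 gained it; the losses came mostly with the fold of 4 (101) and the 10 CPM filter (55), and 3 genes (Anxa1, Sema3b and Pcdh1) lost it under a scaling, GC or length alternative. Of 837 list medians 31 moved. No paired analysis was possible because each label has 1 library. With 1 library per label, differences between labels and between libraries cannot be told apart.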
